A study of Mus musculus with 15 samples.

Results

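Mouse genes that are subject to genomic imprinting were followed, namely Igf2r, Grb10, H13, Commd1, Impact, Zrsr1, Snrpn, Peg3, Plagl1 and Nap1l5. They were chosen by symbol and make up 10 of the 55335 gene identifiers in the count files, and the rule sets no threshold on their values. RNA was measured by sequencing of ribosomal-RNA-depleted total RNA in 6 libraries of cultured mouse pre-B cells, with no treatment. The cells of all 6 libraries are labelled Slp65KO, for loss of SLP65, the adaptor of the pre-B cell receptor encoded by Blnk. They came from bone marrow, were taken from 1 cell and were kept in IMDM medium with interleukin 7. An Msl2 guide RNA delivered by electroporation gave the Msl2KO line, which was set against the wt clone, so that each genotype is 1 line. MSL2 is the ubiquitin ligase of the MSL complex, whose enzyme MOF acetylates histone H4. The comparison asks which RNA levels differ between the 3 libraries titled MSL2WT (called wild type here) and the 3 titled MSL2KO (called knockout here).

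The labels contradict themselves: the genotype tags read MSL2KO;Slp65KO for the 3 libraries titled wild type and MSL2wt;Slp65KO for the 3 titled knockout. The groups follow the titles, and every direction below depends on them. The RNA of the edited gene did not settle this, since Msl2 measured 96.3 ± 3.6 CPM (SD, n = 3; CPM are read counts scaled to a common library size) in wild type against 109.8 ± 9.91 CPM in knockout (adjusted p 0.302). Blnk RNA was also present in both groups, at 98.3 ± 19 CPM in wild type and 111.6 ± 4.07 CPM in knockout. Whether the Msl2 and Blnk transcripts were intact was not tested. Nothing in the labels says that replicates were separate cultures. The p-values then speak only to the variation among these 6 libraries, some or all of which could be technical. Total counts were 14092278 to 20803227 per library, at which 3 reads, the upper limit taken for a count of 0, correspond to 0.141 to 0.212 CPM. This limit, like the intervals on read ratios, covers counting error only. The scaling is by TMM (trimmed mean of M values), and since CPM are not divided by gene length, levels are compared between groups and not between genes. In bulk RNA, fewer cells with a transcript and less transcript per cell cannot be told apart. The second library of each group was often, but not always, the one nearest the other group. Among the 365 genes that fell, knockout replicate 2 was the highest of its group in 201, and wild-type replicate 2 the lowest in 183. Among the 235 that rose, knockout replicate 2 was the lowest of its group in 119, and wild-type replicate 2 the highest in 123. The shares over all tested genes were not counted. For Grb10 and Osbpl5, which fell, wild-type replicate 2 was instead the highest of its group. Some results are given with and without the libraries numbered 2.

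An imprinted gene is expressed mainly from the copy inherited from 1 parent, because an imprinting control region carries DNA methylation set in the egg or the sperm. In the mouse Igf2r, H13 and Commd1 are known as maternally expressed in at least some tissues, as is Grb10 outside neurons. Impact, Zrsr1, Snrpn, Peg3, Plagl1 and Nap1l5 are known as paternally expressed, again in at least some tissues. Whether any of these genes is imprinted in pre-B cells was not tested. Several of them act on growth: IGF2R clears insulin-like growth factor 2 and carries mannose 6-phosphate-tagged enzymes to lysosomes, and GRB10 is an adaptor that dampens insulin and insulin-like growth factor 1 receptor signalling. The counts sum both parental copies, so they do not show which copy was transcribed.

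The start-site regions of several of these genes are rich in CpG dinucleotides, the sites that can carry DNA methylation. Whether these regions lie in an imprinting control region was not examined. RefSeq windows of 300 bases (250 before and 50 after a start site, GRCm38.p6, the same assembly as mm10) were found for 9 of the 10 genes. The following stretches cover the 150 bases before the annotated start, written 5′ to 3′ on the gene's strand with every CpG in capitals. Igf2r and Grb10 are shown because their RNA fell, and Plagl1 and Nap1l5 because they were at or near 0 reads.
Igf2r (chr17:12769707-12769856, minus strand): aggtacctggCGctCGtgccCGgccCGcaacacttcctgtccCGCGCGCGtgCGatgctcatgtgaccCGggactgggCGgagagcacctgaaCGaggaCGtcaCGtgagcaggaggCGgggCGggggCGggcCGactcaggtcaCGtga
Grb10 (chr11:12037421-12037570, minus strand): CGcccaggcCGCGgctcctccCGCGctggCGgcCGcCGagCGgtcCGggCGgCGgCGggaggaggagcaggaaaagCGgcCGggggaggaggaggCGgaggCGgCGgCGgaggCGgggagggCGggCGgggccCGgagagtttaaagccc
Plagl1 (chr10:13090682-13090831, plus strand): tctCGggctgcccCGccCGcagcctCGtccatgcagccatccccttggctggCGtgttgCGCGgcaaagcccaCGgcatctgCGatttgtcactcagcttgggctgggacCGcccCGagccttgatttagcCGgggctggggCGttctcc
Nap1l5 (chr6:58907127-58907276, minus strand): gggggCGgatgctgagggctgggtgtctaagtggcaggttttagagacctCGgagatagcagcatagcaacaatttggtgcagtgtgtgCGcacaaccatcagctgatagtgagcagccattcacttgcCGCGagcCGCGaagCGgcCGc

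These stretches hold 19 CpG in Igf2r, 23 in Grb10, 13 in Plagl1 and 9 in Nap1l5. Over the whole 300-base window Igf2r has 34 CpG, a number that 7.73% of the 32851 windows in the table reach. Grb10 has 45 in its first window, reached by 1.93%, and 9 in its second, reached by 45.8%. The Plagl1 window has 26 (reached by 16.9%), and the Nap1l5 window has 17 (reached by 31.4%); the median over all windows is 7. Of the other genes at 0 reads, Peg3 has 13 in its window, and the 4 windows of Snrpn have 2, 3, 4 and 7, at or below that median. TGCCGC, the motif of the imprint-protecting zinc finger protein ZFP57, was searched on both strands and each match contains a CpG; it occurs in 11.6% of all windows. Matches were found in the windows of Grb10, Plagl1, Commd1 and Snrpn, and in Nap1l5 at 2 places, and not in those of Igf2r, H13, Peg3 and Zrsr1. The YY1 core AANATGGC was also searched on both strands, since the study pairs MSL2 with YY1; it occurs in 6.05% of all windows and in none of those of these genes. A match or its absence describes these letters only.

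Of the 4 genes known as maternally expressed, Igf2r and Grb10 had less RNA in the knockout libraries, while H13 and Commd1 did not pass the test. Of the 6 known as paternally expressed, Impact and Zrsr1 were measured and did not pass, and Snrpn, Peg3, Plagl1 and Nap1l5 had at most 1 read in all libraries together. In all, 6 of the 10 genes passed the filter on low counts, of which 2 fell and 0 rose (edgeR quasi-likelihood test with p-values adjusted by Benjamini-Hochberg over the 13077 genes tested, threshold 0.05). At an unadjusted p under 0.05, 3 of them were lower and 0 higher, and DESeq2 and limma-voom each called 2 lower and 0 higher. Over all tested genes 2.79% were called lower, 1.8% higher and 4.59% in either direction. An unadjusted p under 0.05 was found for 2010 of the 13077, counting either direction. These background values apply to the counts of every list below. Igf2r passed the filter only through its wild-type libraries, so the count of 2 that fell is not support for a shared direction.

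**Figure D1:**
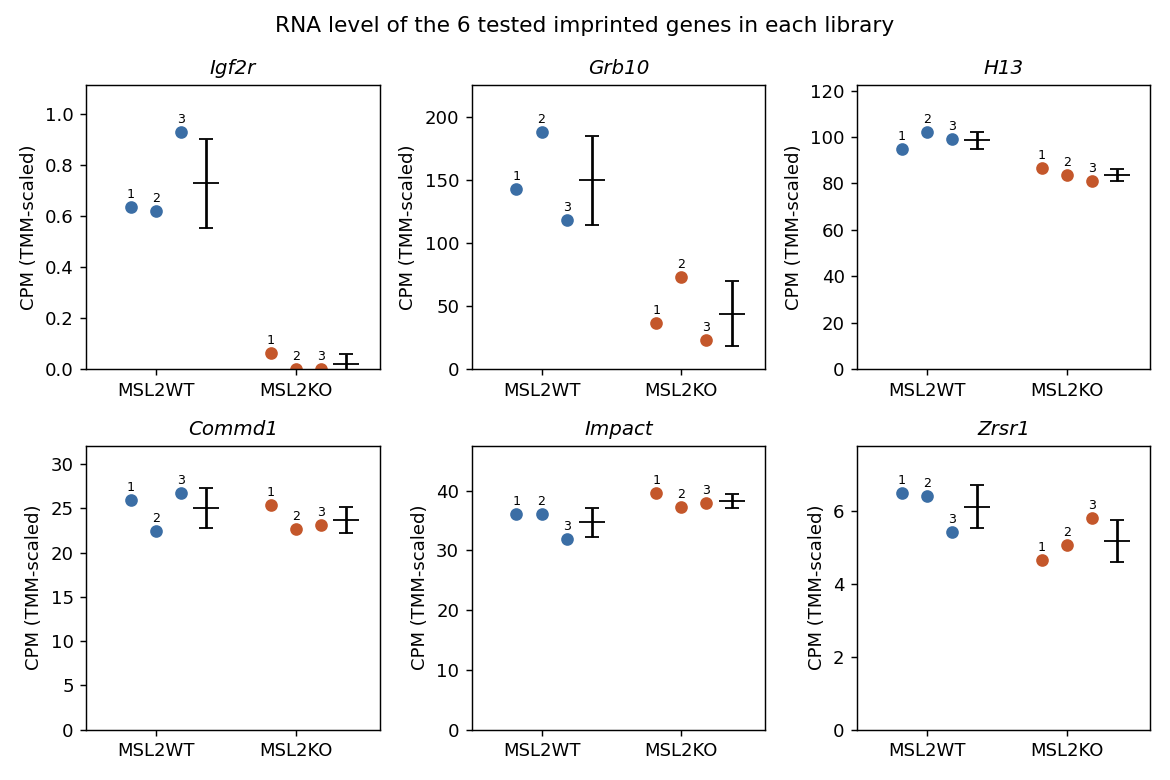
TMM-scaled CPM (vertical axes, each from 0) of the 6 imprinted genes that passed the filter on low counts, in the 3 wild-type (MSL2WT) and 3 knockout (MSL2KO) libraries. Points are libraries with their replicate number, and bars are the mean with its SD. All 3 knockout libraries lie below all 3 wild-type libraries for Igf2r, Grb10 and H13, and above them for Impact. Over all tested genes this holds for 11.2% (below) and 9.68% (above). Igf2r passed the filter only through its wild-type libraries.

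Igf2r (ENSMUSG00000023830.14; chromosome 17, 12682406 to 12769706, mm10) went from a low level to almost no reads. Wild-type replicates 1 to 3 had 9, 11 and 14 reads, against 1, 0 and 0 in knockout replicates 1 to 3. These correspond to 0.636, 0.620 and 0.929 CPM against 0.0622, 0 and 0 CPM. The groups did not overlap: every wild-type library exceeded the limit for 0 reads, and every knockout library was below it. Summed reads were 34 against 1, a ratio of 38 after scaling (95% exact interval 6.38 to 1550). The log2 fold change was -4.78 ± 0.78 (SE, with adjusted p 0.0059), a fitted value that depends on the prior count. Throughout, SE is the absolute log2 fold change divided by the square root of the F statistic of the edgeR test. With 1 knockout read this SE is narrower than the exact interval, although that interval covers counting error only. Without knockout replicate 1, which held the only knockout read, the log2 fold change was -6.61 (adjusted p 0.017). Without knockout replicate 2 it was -4.19 (adjusted p 0.0279). Without both libraries numbered 2 the reads were 23 against 1 (ratio 24.6, interval 3.99 to 1010), and the gene then no longer passed the filter.

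The precision is set by the wild-type level, which averaged 0.728 ± 0.174 CPM. Airn, the paternally expressed non-coding transcript that overlaps Igf2r and silences it in cis, was listed at 0 reads in all 6 libraries. So were Slc22a2 and Slc22a3, imprinted in placenta and next to Igf2r.

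Grb10 (ENSMUSG00000020176.17; chromosome 11, 11930499 to 12037428) was well covered and fell 3.38-fold. Wild-type replicates 1 to 3 had 2018, 3332 and 1787 reads, against 581, 1547 and 346 in the knockout replicates. On the CPM scale this is 143, 188 and 119 against 36.1, 72.6 and 22.8. Knockout replicate 2 was the highest of its group, yet it stayed below the lowest wild-type library. Means were 149.7 ± 35.2 and 43.9 ± 25.8 CPM, with a log2 fold change of -1.76 ± 0.33 (SE; adjusted p 0.0138). The call was lost without knockout replicate 1 (log2 fold change -1.63, adjusted p 0.0553). It held without each of the other libraries in turn; the log2 fold change was -2.33 without knockout replicate 2 (adjusted p 0.000266), and -2.14 without both libraries numbered 2 (adjusted p 0.000371).

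H13 (ENSMUSG00000019188.16; chromosome 2, 152669422 to 152708668), which encodes signal peptide peptidase, an intramembrane protease that clears cut signal peptides, was measured at 94.7, 102.1 and 99.1 CPM in the wild-type libraries. The knockout libraries gave 86.5, 83.7 and 81.2 CPM. The groups did not overlap, which is also so, with knockout below wild type, for 11.2% of all tested genes (20.9% did not overlap in either direction). The log2 fold change of -0.24 ± 0.07 (SE) had an unadjusted p of 0.00672 and an adjusted p of 0.0962. It missed the threshold in every alternative fit. The adjusted p ran from 0.061 with a replicate block to 0.647 without both libraries numbered 2, and from 0.143 to 0.327 without 1 library. Mcts2, a paternally expressed retrogene inside an H13 intron, had 3.38 ± 0.587 against 3.74 ± 0.39 CPM, and its X-linked parent Mcts1 had 40.2 ± 1.78 against 40.0 ± 1.82 CPM; neither was called (adjusted p 0.865 and 0.983).

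Commd1 and Zrsr1 share a locus on chromosome 11, where Zrsr1 lies inside the span of Commd1. Commd1 (ENSMUSG00000051355.18; 22899728 to 22984539), whose product works in endosomal sorting and copper handling, had 25.9, 22.5 and 26.7 CPM in wild type and 25.4, 22.6 and 23.1 CPM in knockout. The ranges overlapped, with a log2 fold change of -0.08 ± 0.10 (SE; adjusted p 0.818). Zrsr1 (ENSMUSG00000044068.7; 22972005 to 22976496), a retrogene for a splicing factor related to U2AF, had 6.5, 6.43 and 5.44 CPM against 4.66, 5.07 and 5.81 CPM. Its ranges overlapped too, and its log2 fold change was -0.24 ± 0.18 (SE; adjusted p 0.615). Its parent Zrsr2 had 25.3 ± 1.12 and 25.9 ± 2.34 CPM (adjusted p 0.949). Neither member of the locus was therefore called in either direction, under any of the alternatives run.

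Impact (ENSMUSG00000024423.6; chromosome 18, 12954690 to 12992950), an inhibitor of the amino acid sensor kinase GCN2, was at 36.2, 36.0 and 31.9 CPM in wild type and at 39.6, 37.3 and 37.9 CPM in knockout. Every knockout library lay above every wild-type library, as for 9.68% of tested genes. The difference was small (log2 fold change 0.14 ± 0.09, SE) and was not called (adjusted p 0.525).

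The other paternally expressed genes gave almost no reads in either group. Snrpn (ENSMUSG00000102252.5; chromosome 7, 59982495 to 60450177), which encodes the spliceosomal protein SmN, was at 0 reads in all 6 libraries. Peg3 (ENSMUSG00000002265.17; chromosome 7, 6703892 to 6730462), a zinc finger gene with roles in growth and maternal behaviour, was at 0 as well. Nap1l5 (ENSMUSG00000055430.4; chromosome 6, 58905233 to 58907126), an intronless relative of nucleosome assembly protein genes, was also at 0. Plagl1 (ENSMUSG00000019817.18; chromosome 10, 13090832 to 13131694), the growth-restraining zinc finger factor ZAC1, had 1 read, in knockout replicate 1. These genes were at or near 0 in the deposited counts of both groups, and no fold change is given for them.

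Their overlapping partners differed in coverage. Herc3, the host gene around Nap1l5, had 902 reads in all and 9.09 ± 2.7 against 8.58 ± 2.93 CPM (adjusted p 0.947). Snhg14, the long transcript across Snrpn and Ube3a, had 129 reads and a similar mean in both groups (1.27 ± 0.877 and 1.25 ± 0.336 CPM, adjusted p 0.995). Snurf, which shares a transcript with Snrpn, was at 0. How reads that fall on overlapping genes were assigned is not given in the sources used here. A few broadly expressed genes also had hardly any reads: Ccdc22 of the Commander complex had 1 and the lysosomal enzyme gene Hexa had 11. Whether read assignment plays a part in the 0 of Snrpn was not tested.

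Outside these genes, 1 of a list of 64 other imprinted genes fell and 0 rose. Only 20 of the 64 could be tested, since 33 had 0 reads in all libraries and 42 had fewer than 10 in total. Their median log2 fold change was -0.03, beside 0.004 over all tested genes; 3 were lower and 0 higher at an unadjusted p under 0.05, and DESeq2 and limma-voom each called 1 lower and 0 higher. The gene that fell was Osbpl5 (ENSMUSG00000037606.18; chromosome 7, 143688762 to 143757008), a lipid transfer protein gene of the Kcnq1 domain, maternally expressed in placenta. Its CPM were 26.2, 27.5 and 25.3 in wild type against 6.90, 13.5 and 7.26 in knockout. The groups were far apart, with knockout replicate 2 again the highest of its group; the fall was 2.82-fold (log2 fold change -1.49 ± 0.22, SE; adjusted p 0.0034). Without both libraries numbered 2 the log2 fold change was -1.86 (adjusted p 0.000274).

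Its neighbours in the same domain were not called. Kcnq1ot1, the paternally expressed non-coding transcript of the domain, had 153 ± 53.3 against 164 ± 58.1 CPM (adjusted p 0.935), and Nap1l4 had 240 ± 21.5 against 232 ± 3.35 CPM (adjusted p 0.865). Cd81, a surface tetraspanin, had 63.2 ± 3.01 against 51.2 ± 7.44 CPM and was not called (adjusted p 0.166), although it was without knockout replicate 1 (adjusted p 0.0498). Other well-covered imprinted genes had near-equal means: Ube3a, the ubiquitin ligase of Angelman syndrome, 177 ± 10.7 and 176 ± 7 CPM; Atp10a 73.1 ± 1.43 and 72.1 ± 0.802 CPM; Inpp5f 43.4 ± 2.83 and 42.2 ± 1.17 CPM; and Peg13 35.3 ± 1.55 and 37.5 ± 0.942 CPM (adjusted p 0.987, 0.946, 0.9 and 0.716). Classical imprinted genes of fetal growth, among them Igf2, H19, Cdkn1c, Phlda2, Peg10 and Ndn, were at 0 reads in all 6 libraries, and Dlk1 and Meg3 had 2 reads each.

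**Figure D2:**
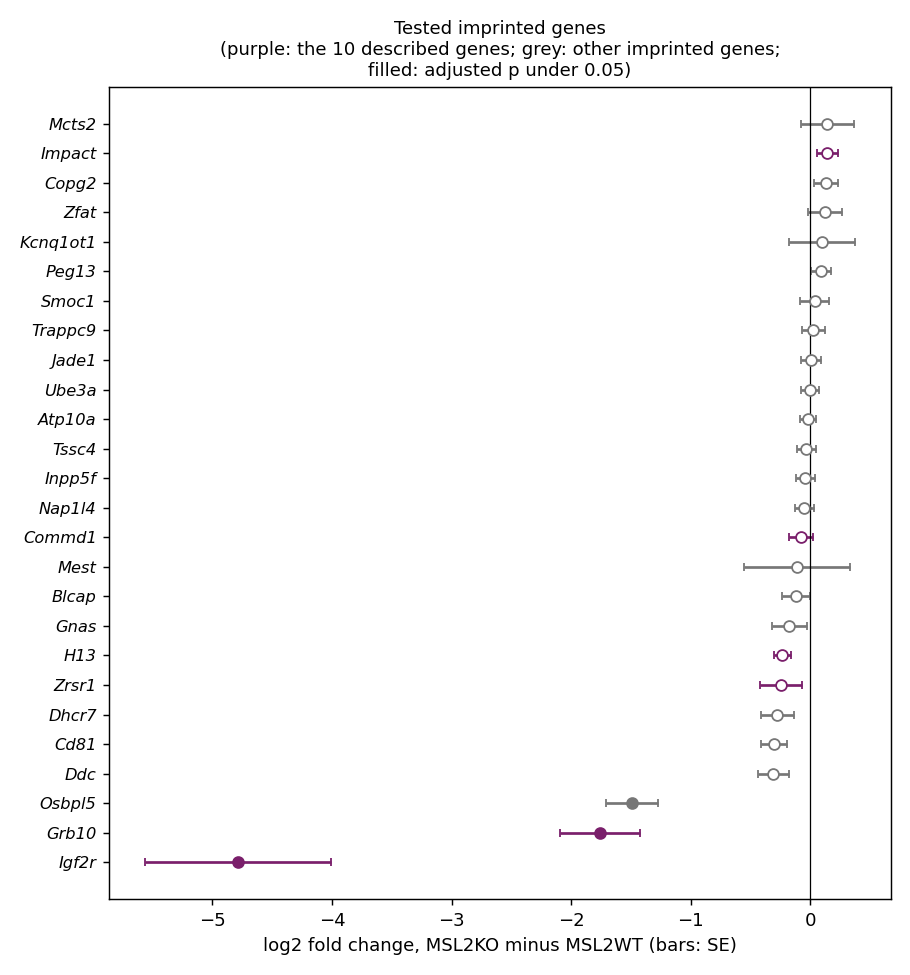
Log2 fold change, knockout minus wild type (horizontal axis, bars are SE), of the 26 tested imprinted genes; purple marks the genes followed here, grey the other listed imprinted genes, and filled points have an adjusted p under 0.05. Igf2r, Grb10 and Osbpl5 are the filled points, at -4.78, -1.76 and -1.49, and the other 23 lie between -0.31 and 0.14.

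Genes around Igf2r and Grb10 were examined to see whether the falls extended along the chromosome. Within 500 kb of Igf2r edgeR called 0 of the 11 genes tested; Acat2 alone had an unadjusted p below 0.05 (1 gene, 77.2 against 59.8 CPM, adjusted p 0.308). The median log2 fold change of these neighbours was -0.007, with values from -0.37 to 0.75. Around Grb10 7 genes were tested and 0 called; 1 had an unadjusted p under 0.05, Ddc, the next imprinted gene on that side (48.7 ± 6.63 against 39.4 ± 6.46 CPM, adjusted p 0.29). Ikzf1, which encodes the lymphoid factor Ikaros, lies on the same side at 190 against 211 CPM (adjusted p 0.33). The Grb10 neighbours had a median of -0.04 and ranged from -0.39 to 0.20. Around Osbpl5 0 of 9 were called, with 1 at an unadjusted p under 0.05. DESeq2 and limma-voom called 0 genes around each of these 3.

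**Figure D3:**
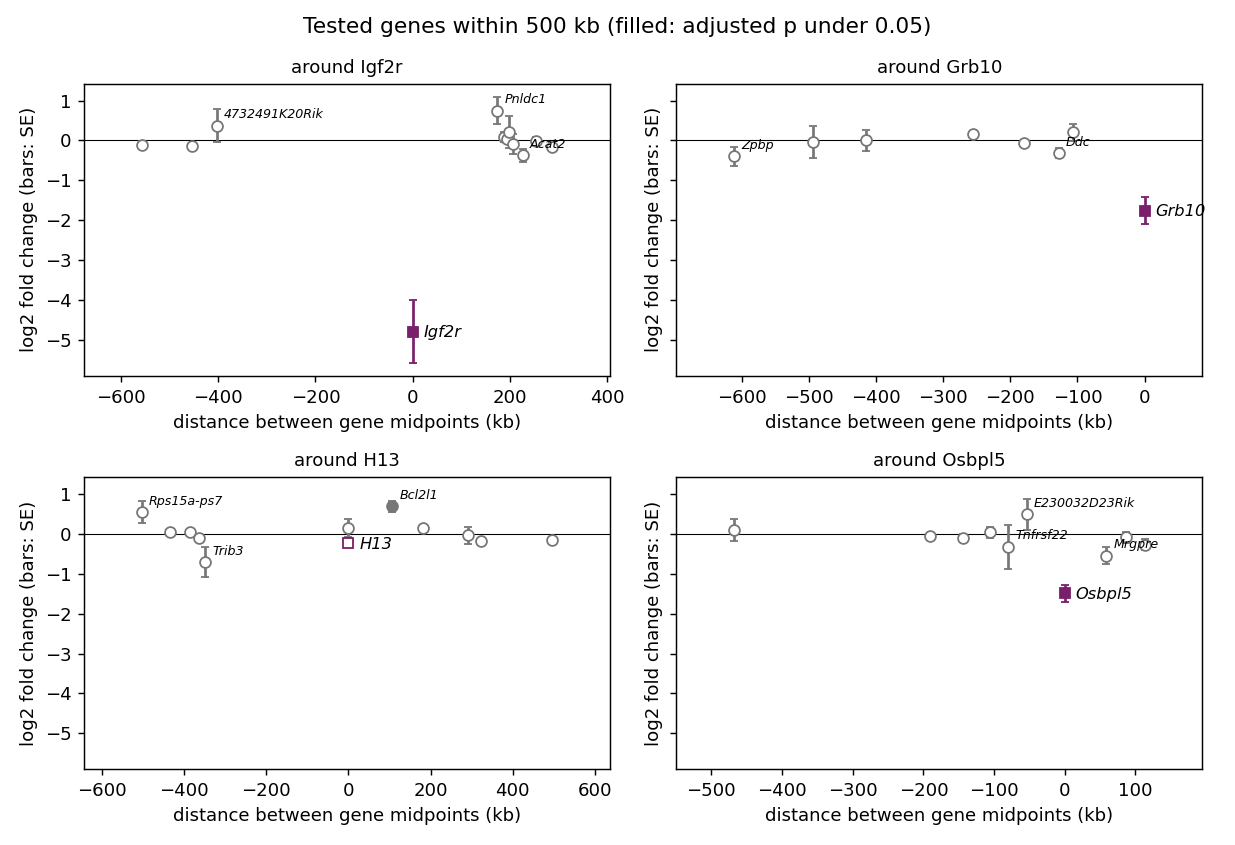
Log2 fold change, knockout minus wild type (vertical axes, bars are SE), against the distance in kb between gene midpoints, for tested genes within 500 kb of Igf2r, Grb10, H13 and Osbpl5. Squares are the central genes, circles their neighbours, and filled symbols have an adjusted p under 0.05. Igf2r, Grb10 and Osbpl5 lie below every one of their neighbours, and Bcl2l1 near H13 is the filled circle.

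Near the other members, 2 genes were called. Bcl2l1, whose product BCL-XL protects cells from apoptosis, lies 107.2 kb from H13 between midpoints, and was at 45.2, 40.4 and 42.4 CPM in wild type and 85.9, 55.9 and 64.0 CPM in knockout (adjusted p 0.0211). It was not called without wild-type replicate 2 (adjusted p 0.0854) or 3 (adjusted p 0.0574). Phactr2, a phosphatase and actin regulator 229.9 kb from Plagl1, had 12.9, 12.4 and 9.16 against 4.29, 6.71 and 4.55 CPM (log2 fold change -1.13 ± 0.21, SE; adjusted p 0.0119). Without wild-type replicate 1 its adjusted p was 0.0509. Knockout libraries of both genes were clear of the wild-type range, while Plagl1 itself had 1 read. No tested gene near Peg3, Zrsr1, Commd1, Impact, Snrpn or Nap1l5 was called by edgeR, DESeq2 or limma-voom, and 0 had an unadjusted p under 0.05.

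Among the genes of insulin and insulin-like growth factor signalling, the pathway on which IGF2R and GRB10 act, 1 of 11 tested fell and 0 rose (23 listed). Their median log2 fold change was -0.008; 3 were lower and 2 higher at an unadjusted p under 0.05, DESeq2 called 1 in each direction and limma-voom 1 lower. The gene that fell was Igf1, the ligand of the type 1 receptor, with 50, 92 and 39 reads in wild type and 1, 2 and 2 in knockout. In CPM these are 3.53, 5.19 and 2.59 against 0.0622, 0.0939 and 0.132. Every knockout library was below the limit taken for 0 reads; the summed reads gave a ratio of 40.5 (95% exact interval 17 to 126; adjusted p 0.000339). Igf1, like Igf2r, passed the filter only through the wild-type libraries.

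The other receptors, ligands and adaptors were at or near 0 reads or were not called. Igf2, the ligand cleared by IGF2R, had 0 reads, and the receptor gene Igf1r had 1. The insulin receptor gene Insr had 30.8 ± 1.81 against 25.4 ± 3.31 CPM (adjusted p 0.252), and Irs2, its substrate, 83.8 ± 4.15 against 83.7 ± 1.41 CPM (adjusted p 0.995). Of the adaptors related to GRB10, Grb14 had 2 reads and Grb7 had 1.57 ± 0.804 against 0.670 ± 0.358 CPM (adjusted p 0.305). Foxo1, a transcription factor restrained by insulin signalling and needed in pre-B cells, had 39.0 ± 13 against 62.4 ± 1.67 CPM (log2 fold change 0.67; adjusted p 0.0741). DESeq2 called it (adjusted p 0.00397), and edgeR did so without both libraries numbered 2 (log2 fold change 0.995, adjusted p 0.00537).

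**Figure D4:**
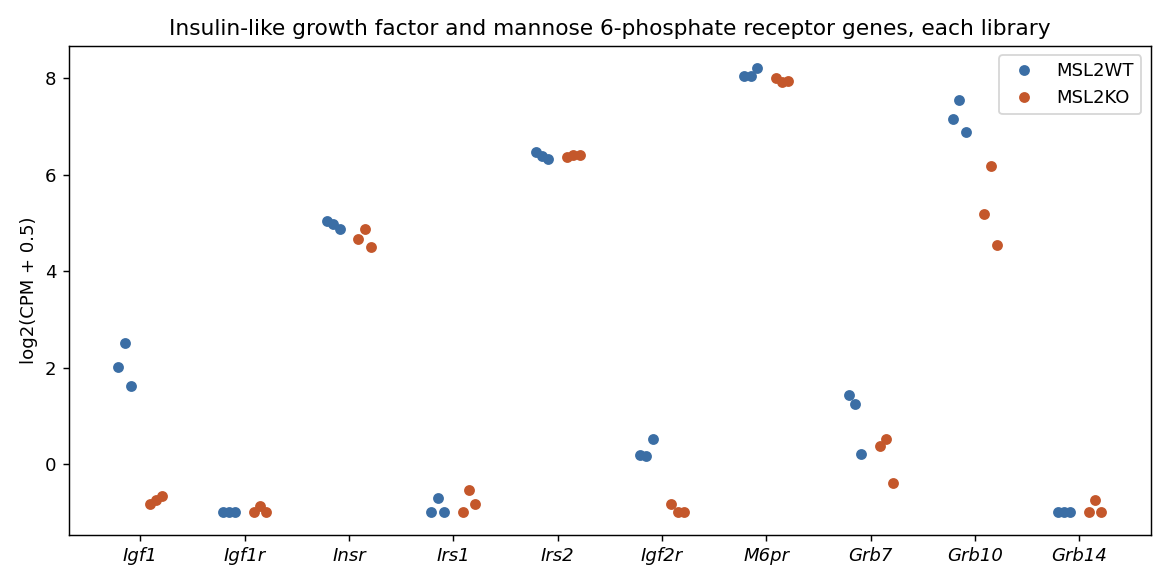
Log2(CPM + 0.5) (vertical axis) of genes of the insulin-like growth factor and mannose 6-phosphate receptor group in each of the 3 wild-type (blue) and 3 knockout (orange) libraries, replicates 1 to 3 from left to right. Values of different genes are not scaled by length. The 2 groups separate for Igf1, Igf2r and Grb10, and narrowly for M6pr, which was not called (adjusted p 0.397). Irs2 overlaps, and Igf1r and Grb14 sit at or near the floor of 0 reads.

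The mannose 6-phosphate route, the second task of IGF2R, had 2 of 23 tested genes lower and 0 higher (26 listed). Over all tested genes 2.79% were called lower. Signs were negative for 17 of the 23, and for 6411 of the 13077 genes tested in all. The median log2 fold change was -0.14 against 0.004 over all tested genes. In this list 5 were lower and 2 higher at an unadjusted p under 0.05, DESeq2 called 3 lower and limma-voom 2. Whether the list moved as a set was not tested. Gaa, the lysosomal alpha-glucosidase, measured 25.2, 20.7 and 24.0 CPM in wild type against 12.9, 12.5 and 9.37 CPM in knockout (log2 fold change -0.999 ± 0.14, SE; adjusted p 0.00292). Gga2, an adaptor that sorts the receptors at the Golgi, had 110.6 ± 4.67 against 86.5 ± 7.64 CPM (adjusted p 0.037). This call was lost without any of 5 single libraries (all but knockout replicate 3, adjusted p up to 0.14). It was also lost without both libraries numbered 2 (adjusted p 0.289). M6pr, the smaller of the mannose 6-phosphate receptors, had 275 ± 17.9 against 249 ± 7.24 CPM and was not called (adjusted p 0.397).

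Partners of the remaining members gave no calls. In the Commander complex, in which COMMD1 works, edgeR called 0 of 12 tested genes (median log2 fold change -0.06; 2 lower and 1 higher at an unadjusted p under 0.05). Vps35l, a retriever subunit of that assembly, came nearest at 44.7 ± 2.05 against 35.9 ± 2.34 CPM (adjusted p 0.0698; named after its values were seen). Relatives of H13 gave 0 of 3 (median 0.04; 1 lower unadjusted), and the GCN2 partners of IMPACT 0 of 4 (median 0.004; 0 unadjusted). Sm and U2AF splicing genes, the relatives of Snrpn and Zrsr1, gave 0 of 10 (median 0.03; 1 lower unadjusted). Snrpb, the close paralogue of Snrpn, had 445 ± 57.2 against 459 ± 25.1 CPM (adjusted p 0.909). Nucleosome assembly protein genes gave 0 of 3 (median -0.05; 0 unadjusted), with Nap1l1 at 485 ± 25.3 and 551 ± 58.2 CPM (adjusted p 0.386). DESeq2 and limma-voom called 0 in all 5 lists.

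Genes that set or keep imprints were examined next. Of 18 tested (25 listed), 1 rose and 0 fell, beside 4.59% called in either direction over all tested genes. Their median log2 fold change was 0.10; 3 were higher and 1 lower at an unadjusted p under 0.05, and DESeq2 and limma-voom each called 1 higher. Ehmt2, the histone H3 lysine 9 methyltransferase G9a, rose from 263 ± 21.2 to 332 ± 10.6 CPM (log2 fold change 0.33 ± 0.08, SE; adjusted p 0.0441). That call was lost without any of 5 single libraries, all but wild-type replicate 3 (adjusted p up to 0.177). It was also lost without both libraries numbered 2 (adjusted p 0.25). The maintenance methyltransferase gene Dnmt1 had 556 ± 20.5 against 611 ± 42.9 CPM, and Trim28, the corepressor that ZFP57 recruits, 827 ± 104 against 914.5 ± 97.4 CPM (adjusted p 0.494 and 0.637). Zfp57 had 1 read, whereas its relative in imprint protection, Zfp445, had 133.5 ± 6 against 122 ± 4.04 CPM (adjusted p 0.446).

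The demethylation enzyme gene Tet1 and the methyltransferase gene Dnmt3b, both named after their values were seen, differed in direction and were not called. Tet1 was at 4.38, 9.08 and 3.98 CPM in wild type and 0.373, 3.33 and 0.330 CPM in knockout. Its replicates numbered 2 were the highest in both groups; the log2 fold change was -2.02 with all libraries (adjusted p 0.149) and -3.53 without both of them (adjusted p 0.00163). Dnmt3b had 0, 1 and 3 reads in wild type and 10, 24 and 10 in knockout, which left it below the low-count filter. With no such filter, a setting in which p-values were far smaller, its log2 fold change was 3.15 (adjusted p 0.000239). Some fits without 1 library also tested it. It was called without wild-type replicate 3 (adjusted p 0.0258) or knockout replicate 3 (0.0456). It was not called without wild-type replicate 1 (0.0907), wild-type replicate 2 (0.12) or knockout replicate 1 (0.0508). DNA methylation was not measured in these libraries.

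Pre-B markers were present in both groups. All 10 were tested; 1 fell and 0 rose, with 2 lower and 0 higher at an unadjusted p under 0.05, and DESeq2 and limma-voom each called 1 lower and 0 higher. The marker that fell was Il7r, the interleukin 7 receptor chain, from 82.0 ± 12.5 to 28.1 ± 11.3 CPM (log2 fold change -1.53 ± 0.23, SE; adjusted p 0.00392). The list summed to 2550 to 2860 CPM in wild type and 2610 to 2670 CPM in knockout, although the recombinase gene Rag1 was near 0 in 2 wild-type libraries (0 CPM) and at most 1.92 CPM elsewhere. The stromal list summed to at most 0.132 CPM in any library, with 6 of 8 markers at 0 everywhere, Col3a1 and Pdgfra included. Myeloid markers summed to 0.132 to 0.733 CPM (4 of 8 at 0, Lyz2 included), and T and natural killer markers to 0.796 to 2.14 CPM (1 of 7 at 0). The erythroid list summed to 131 to 190 CPM, nearly all from Hbb-bt (158 ± 13.2 against 156 ± 30 CPM), with Hba-a2 at 0.

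Other genes followed the same course over the 6 libraries. Likeness was measured as the root mean square difference of centred log2(CPM + 0.5) values, over protein-coding genes whose mean log2 CPM reached 2. The 3 genes most like Igf2r among 9008 were Rapgefl1 (difference 0.10), Xbp1 (0.14) and Ass1 (0.14). Xbp1, a factor of the unfolded protein response and of plasma cells, had 465, 394 and 474 CPM against 173, 194 and 176 CPM. With the pseudocount of 0.5, which compresses a gene as low as Igf2r, its pattern is that of a moderate fall. Among 9007 candidates the 3 most like Grb10 were Il7r (0.24), Ncs1 (0.27) and Rap1gap (0.31). Il7r had 76.1, 96.3 and 73.6 CPM against 24.7, 40.7 and 18.9 CPM. Its replicates numbered 2 are the highest of each group, as in Grb10. The libraries are shared by all genes, so such likeness is a description only.

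**Figure D5:**
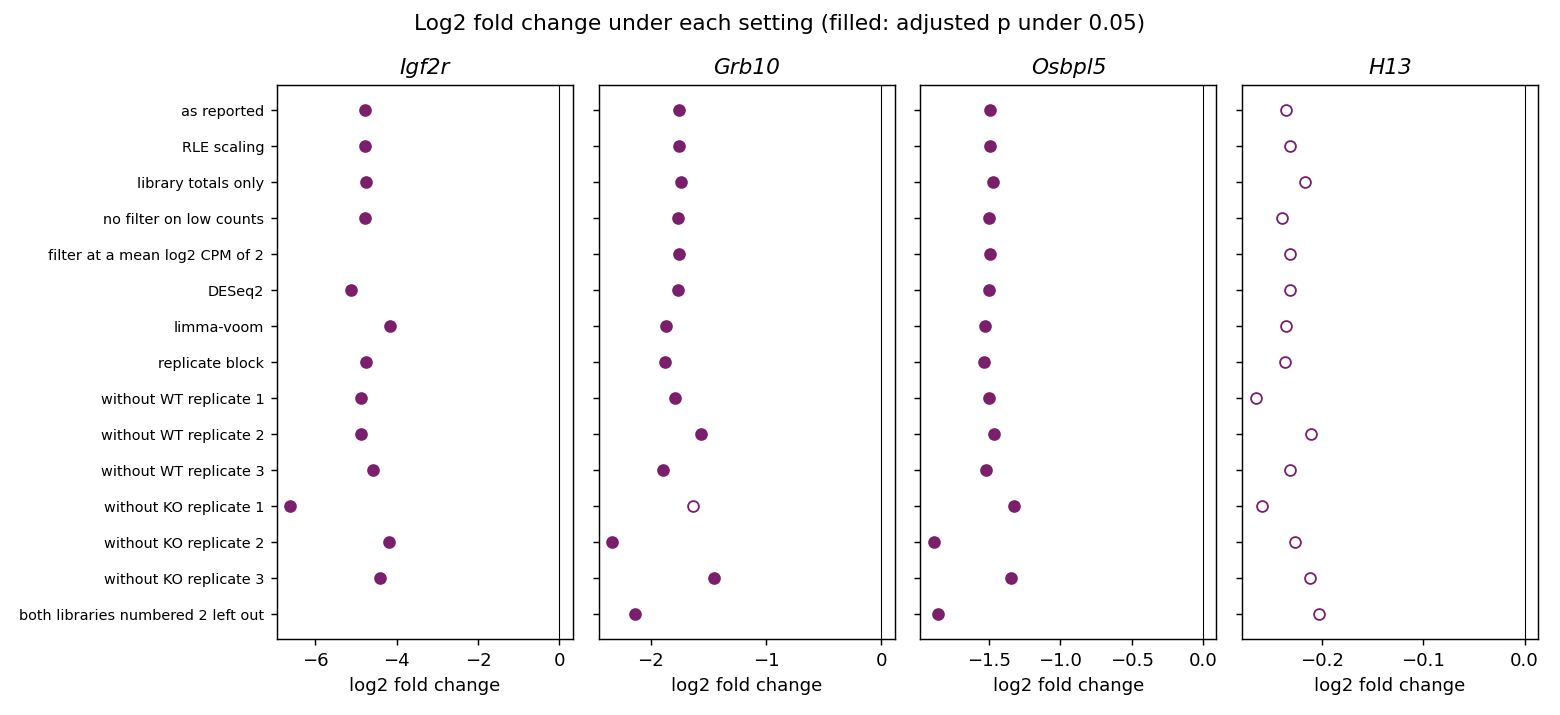
Log2 fold change, knockout minus wild type (horizontal axes, each with its own range), of Igf2r, Grb10, Osbpl5 and H13 under each processing setting (rows); filled points have an adjusted p under 0.05, and a missing point means that the gene was not tested. Every point is below 0; Grb10 is open only without knockout replicate 1, at -1.63, and H13 is open throughout.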

How the data were processed

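The authors deposited 1 table of raw read counts per gene for each of the 6 RNA libraries; per the file headers and the values these are whole numbers with no normalisation. Among the tools listed in the submitters' processing notes are featureCounts 2.0.0, STAR 2.5.3a and limma, and the build listed is mm10; no role or order is given. For the annotation, the strand setting and the treatment of overlapping reads, nothing is given in the sources used here. The series' 9 ChIP and input samples are not analysed here. Groups and replicate numbers come from the titles.

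Of 55335 identifiers 55154 matched a symbol and 181 did not. Positions, overlaps and start-site windows are from RefSeq GRCm38.p6, and 11628 tested genes had a position. Whole gene spans are given. Genes passing filterByExpr (13077) were scaled by TMM and tested with edgeR 4.0.16 (quasi-likelihood, no covariate) in R 4.3.3, with Benjamini-Hochberg adjusted p over all of them and a threshold of 0.05. The biological coefficient of variation was 0.109. Replicates all differed by more than sampling noise (chi-square divided by degrees of freedom, 6.53 to 17.5). The alternatives tried were DESeq2 1.42.0, limma-voom (limma 3.58.1), RLE scaling, scaling by totals, no filter on low counts, a stricter one (mean log2 CPM 2), a replicate block, and each library left out in turn. A fit without both libraries numbered 2 was chosen after seeing the data.

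The genes followed and all lists were chosen with earlier results of these data known. All 10 genes are named, with up to 3 called genes per direction of each list by smallest p, the genes overlapping or next to a member, and the 3 genes most like Igf2r and Grb10; other names, such as level or unread genes of a list and called neighbours, were chosen after their values were seen. Lists are described by counts and medians. Values of some listed marker genes are not reported here. Counts were also simulated for this comparison (12815 genes tested). From these edgeR recovered 53% of 66 genes changed 1.5-fold, 75.8% of 66 changed 2-fold and 95% of 60 changed 4-fold. It called 10 of 12623 unchanged genes. Each gene was simulated independently, with no deviation shared by the genes of a library. Recovery and false calls in the real counts, where libraries have such shared deviations, may therefore differ.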

Additional observations from a re-analysis of the deposited data

How the results depend on the processing

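The directions of Igf2r, Grb10, H13, Osbpl5, Igf1 and Gaa were the same in every alternative in which they were tested. The number of genes followed here that fell, 2 as reported, was 1 with the stricter low-count filter (mean log2 CPM 2) and 1 with both libraries numbered 2 left out, since Igf2r was not tested in either, and 1 to 2 when 1 library was left out. The number that rose was 0 throughout. Of the other imprinted genes 1 fell as reported, 2 with no filter (Cd81 added, adjusted p 0.0439) and 1 to 2 when 1 library was left out. Over all genes, 235 rose and 365 fell as reported. With no filter these were 482 and 721 of 26696 tested, with the stricter filter 231 of 9635 fell, and with both libraries numbered 2 left out 224 of 12912 fell. Leaving out 1 library gave 138 to 227 higher and 242 to 316 lower; both lowest counts came without wild-type replicate 1, and without knockout replicate 1 147 were higher. With no filter p-values were far smaller (Grb10 adjusted p 1.05e-71); the cause was not tested. Depth limits what can be said of Igf2r, with 34 and 1 reads, Igf1, with 181 and 5, and the genes at 0.

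Deviations from the group means correlated at 0.029, 0.212 and 0.403 between libraries of the same number, replicates 1 to 3. Between libraries of different number the values ran from -0.396 to 0.272. The highest of all was that of the replicates 3, but wild-type replicate 1 correlated best with knockout replicate 2 (0.272). The labels give no shared batch, and whether libraries of the same number belong together was not tested. With the replicate block 381 genes rose and 565 fell, Grb10 had a log2 fold change of -1.87 (adjusted p 0.00133) and Igf2r -4.76 (adjusted p 0.0133); the calls gained included Tet1 (adjusted p 0.0152), Foxo1 (0.0417), Uhrf1 (0.0419) and Npc2 (0.0347).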
